A study of Danio rerio with 2 samples.

Results

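The genes of synaptic vesicle and exocytosis machinery were examined in zebrafish hair cells (HCs). Members were chosen by name, with earlier results of these data known. They are genes whose deposited symbol or Ensembl gene name begins with SYT, STX, VAMP, SNAP, STXBP, CPLX, SV2, RIMS, UNC13, RAB3 or SYP, or with SYN and a digit, whereas the otoferlin genes were left out. The rule found 106 of the 17668 genes of the data set, and 82 different base symbols among them once paralogue letters were taken off. Some genes share the letters of these names but belong to other protein families. These 14 namesakes (SNAPC genes, a SNAP91 gene and RAB30 to RAB39) are described apart from the others. The data hold 1 library of GFP(+) cells, labelled hair cells, and 1 library of GFP(−) cells, labelled non-hair cells. Both came from ppv3b:GFP transgenic larvae at 5 dpf and were separated by flow cytometry. The transgene is described as expressed predominantly in HCs, so that other cells may carry GFP as well, and the GFP(−) population mixes many cell types. The purity that the paper gives for sorted GFP(+) cells leaves room for some GFP(−) cells among them. The part of such cells in low GFP(+) values was not tested. The number of larvae pooled is not given in the sources used here. With 1 library each, the differences could not be set against a spread between replicates, and no test was run.

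In release by exocytosis, a vesicle SNARE of the VAMP family pairs with syntaxin and a SNAP-25-type protein of the plasma membrane, and the complex drives fusion. Proteins of the Munc18 (STXBP), Munc13 (UNC13) and RIM (RIMS) families make vesicles ready to fuse, complexins bind the assembled SNAREs, and synaptotagmins sense calcium. Neurons use a small set of these isoforms, and every cell uses others for traffic between its membranes. HCs release glutamate at ribbon synapses, where otoferlin has been described, in mice, as the calcium sensor in place of the neuronal synaptotagmins. Members were therefore read by role and as neuronal, ribbon or general isoforms, following mammalian usage.

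The deposited values are read counts after quantile normalization with a floor of 20, and they are called normalized reads here. They are not divided by gene length, so that levels are compared between libraries and never between genes. GFP(+) values from 20 to 52.5 belong to 3741 genes, 21.2% of all genes, and follow the row order of the table without exception. They are ties at the floor and carry no order of their own. They stand for at most 20 reads. Such values are called tied here, and a fold against them is a lower bound computed with 52.5. Of the members, 40 (37.7%) were tied in GFP(+) cells, with values from 21 to 52. In GFP(−) cells 1 member, an STX11 gene, stood at the floor, as did 3.38% of all genes.

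The ties also gave back the reads behind a value. Up to a value of 426.5 they were determined exactly in both libraries, and above it within bounds that widen with the level. A value of 100 stood for 51 reads in GFP(+) cells and for 149 in GFP(−) cells. A value of 400 stood for 291 GFP(+) reads and 509 GFP(−) reads. As a check, the lowest value among genes that were at the floor in the opposite library corresponded to 40 reads in GFP(+) cells and to 40 in GFP(−) cells, which is the minimum named in the title of the table. Reads are given beside the values, and read ratios were scaled by 0.566, the median read ratio of GFP(+) to GFP(−) over 5724 genes. Counting intervals are exact 95% binomial intervals of this ratio on the log2 scale, and they cover counting error only. A factor of 0.654, from 1821 genes of higher values, lowers every scaled log2 ratio by the same amount (−0.21). Over all 13347 genes whose reads were known within 5%, tied genes at 20 reads included, the median scaled log2 ratio was −0.44, and the median scaled ratios are read against this value. The shift depends on the level. Equal values of 100 correspond to a scaled log2 ratio of −0.73, equal values of 400 to 0.01 and equal values of 1000, at the middle of their read bounds, to 0.44.

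**Figure D1:**
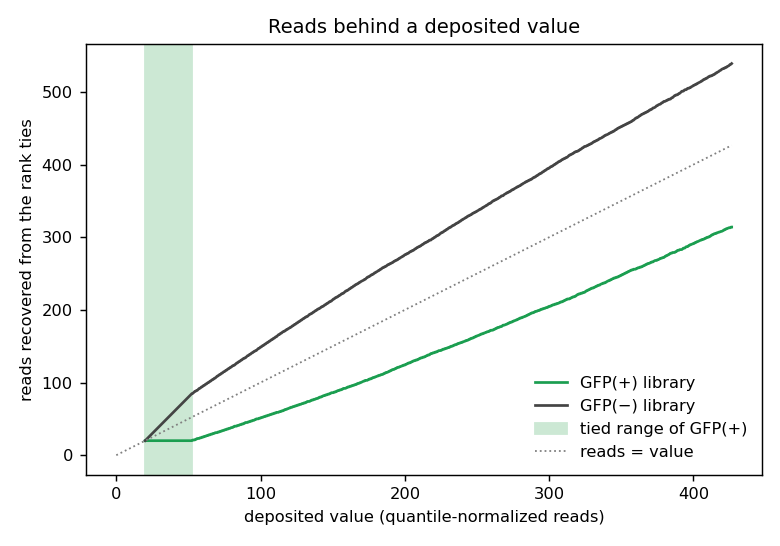
Reads recovered from the rank ties (y axis) against the deposited value (x axis, normalized reads), up to 426.5. The green line (GFP(+) library) is flat at the floor of 20 up to 52.5, the tied range that is shaded, and runs below the dark line (GFP(−) library) at every higher value.

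Most markers of HCs were higher in GFP(+) cells. Of 24 genes on the HC list, 20 were at least 3-fold higher (16.9% of all genes were) and 1 at least 3-fold lower. The lower gene was cabp2a, with 58.0 normalized reads in GFP(+) cells against 178.5 in GFP(−) cells, 3.08-fold lower. SLC17A8, the vesicular glutamate transporter of HCs, had 1248.5 in GFP(+) against 30.0 in GFP(−). All 13 genes of a superficial epidermis list except 1 were at least 3-fold higher as well. The list summed to 9.40% of the GFP(+) total and 0.744% of the GFP(−) total. Quantile normalization made both totals equal, so that these are shares of normalized reads and not of RNA. Of the list, krt4 alone had 978726 in GFP(+) against 73615 in GFP(−), and its GFP(+) reads are known only to lie between 1943 and 1955248. None of the genes of the epidermis list was tied or at the floor. Of 26 neuron markers, 17 were at least 3-fold lower (16.4% of all genes were) and none at least 3-fold higher, with sums of 1919.5 normalized reads in GFP(+) cells against 11532 in GFP(−) cells. ELAVL3, a defining neuronal RNA-binding protein, had 107.5 in GFP(+) against 1669.5 in GFP(−), and 13 of the 26 were tied. Photoreceptor genes were at least 3-fold lower for 15 of 19, with sums of 1262.5 in GFP(+) against 39441 in GFP(−), and endocrine genes for 11 of 17, with sums of 2094.5 in GFP(+) against 15806.5 in GFP(−). In bulk libraries, fewer cells of a type and less RNA per cell cannot be told apart.

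Among the 106 members GFP(+) cells had 12 that were at least 3-fold higher (11.3%, against 16.9% of all genes) and 24 that were at least 3-fold lower (22.6%, against 16.4% of all genes). The median log2 ratio was −0.47 over the members and −0.10 over all genes. With tied values set to 52.5 these medians were −0.08 and 0.16. Of the 24 lower members, 11 were tied in GFP(+) cells, and all 24 stayed at least 3-fold lower when tied values were set to 52.5, against 14.2% of all genes. The isoform classes are given apart. Of 35 neuronal isoforms, 17 were at least 3-fold lower (48.6%) and 1 at least 3-fold higher, with a median of −1.46. In GFP(+) cells 18 of the 35 were tied (51.4%, against 21.2% of all genes), 8 of them among the 17. With tied values at 52.5 the median of the neuronal isoforms was −1.38. Of 38 general isoforms, 2 were at least 3-fold lower (5.26%) and 7 at least 3-fold higher (18.4%), with a median of 0.65. The 35 neuronal isoforms summed to 4323 normalized reads in GFP(+) cells against 13715 in GFP(−) cells, and the 38 general isoforms to 30893.5 in GFP(+) against 11784 in GFP(−). Of the general GFP(+) sum, an STX11 gene (ENSDARG00000029290) held 7750.5 and VAMP8 5604. The GFP(+) reads of both genes are known only within wide bounds. The lower values of the neuronal isoforms stood beside those of the neuron markers, and the part of neurons among the GFP(−) cells in them was not tested.

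**Figure D2:**
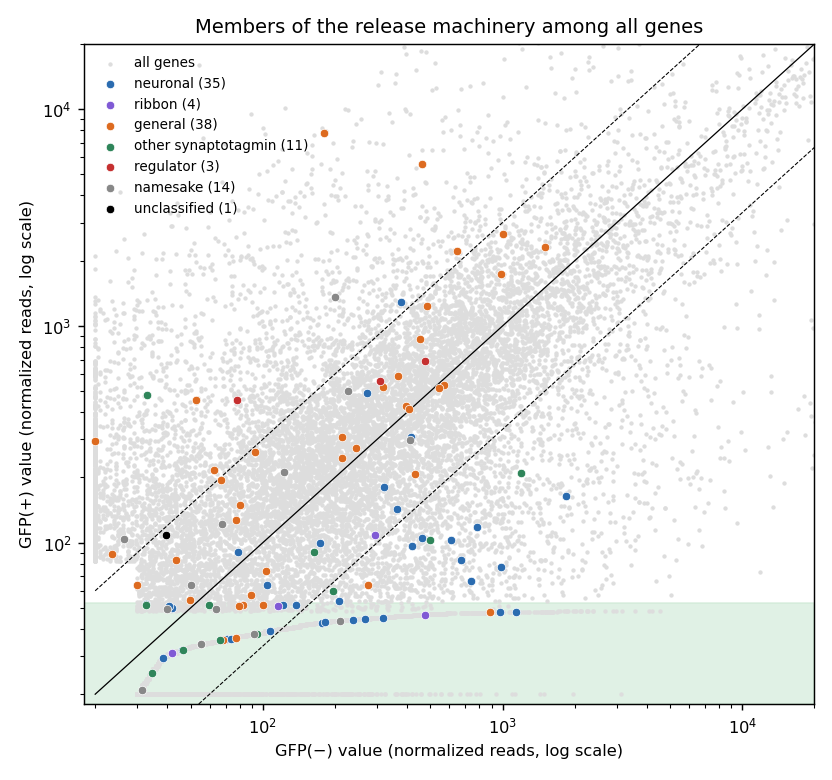
Value in GFP(+) cells (y axis) against value in GFP(−) cells (x axis), both in normalized reads on log scales, with all genes in grey and the 106 members coloured by isoform class. The solid line marks equal values, the dashed lines a 3-fold difference and the shading the tied range of GFP(+), in which the values lie on separate curves. Most neuronal members lie below the solid line, and genes beyond the axes are not shown.

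The neuronal SNAREs described here were low in GFP(+) cells, with the exception of vamp2. STX1A (ENSDARG00000058994), a syntaxin of the presynaptic membrane, was hardly read in either population, with a tied 51.0 in GFP(+) cells against 40.5 in GFP(−) cells. Its deposited ratio is above 1, but the reads were at most 20 in GFP(+) cells against 61 in GFP(−) cells. The scaled reads thus put it at least 1.73-fold lower. As for any tied gene, a scaled ratio below 1 was fixed in advance. Equal values of 40.5 in both libraries stand for the same 20 and 61 reads, so that no difference between the populations can be read from this gene.

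Both SNAP25 genes, which encode the neuronal SNARE of the plasma membrane, were read in GFP(+) cells above the tied range. ENSDARG00000020609 had 66.5 normalized reads in GFP(+) cells against 740.0 in GFP(−) cells, 11.1-fold lower, from 29 GFP(+) reads against 864 to 884 GFP(−) reads. ENSDARG00000058117 had 118.0 in GFP(+) against 780.5 in GFP(−), 6.61-fold lower, with a scaled read log2 ratio of −3.04 (95% counting interval −3.43 to −2.67). Among the vesicle SNAREs, vamp1a (ENSDARG00000031283) was tied at 45.0 in GFP(+) cells against 317.0 in GFP(−) cells, at least 6.04-fold lower. By contrast, vamp2 (ENSDARG00000056877), the main synaptic vesicle SNARE of the brain, had 306.5 normalized reads in GFP(+) cells against 416.0 in GFP(−) cells. This 1.36-fold difference came from 209 GFP(+) and 526 GFP(−) reads, a scaled log2 ratio of −0.51 (95% counting interval −0.75 to −0.28). Thus vamp2 lay within 3-fold of its GFP(−) level by either measure, and vamp1a and both SNAP25 genes did not.

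**Figure D3:**
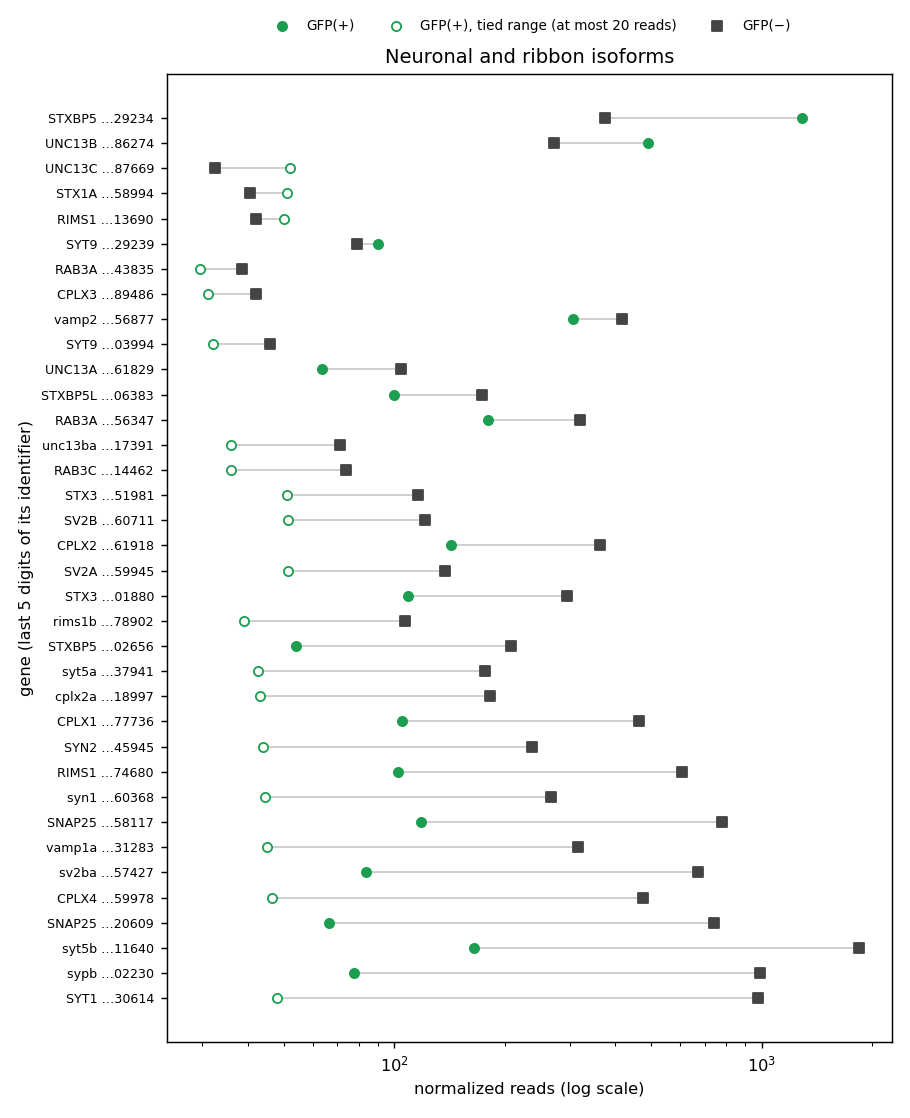
Normalized reads (x axis, log scale) of 36 neuronal and ribbon isoforms, 1 gene per line in the order of the ratio. Green circles are GFP(+) values, open where tied (at most 20 reads), and dark squares are GFP(−) values. The GFP(+) circle lies left of the square for 30 of the 36 genes, and for 3 of the other 6 (UNC13C, STX1A and a RIMS1 gene) the circle is open.

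Of the neuronal synaptotagmins, SYT1, syt5a and syt5b were at least 3-fold lower in GFP(+) cells, and the SYT9 genes were not. SYT1 (ENSDARG00000030614), the main sensor of synchronous release in the mammalian forebrain, was tied at 48 in GFP(+) cells against 975.5 in GFP(−) cells. It was at least 18.6-fold lower by the values and, with at most 20 GFP(+) reads against at least 1063 GFP(−) reads, at least 30.1-fold lower by the scaled reads. A close relative, syt5b (ENSDARG00000011640), had 164.5 in GFP(+) cells against 1846.5 in GFP(−) cells, the highest GFP(−) value of the neuronal isoforms. It was 11.2-fold lower, with 96 reads in the GFP(+) library. Its co-orthologue syt5a (ENSDARG00000037941) was tied at 42.5 in GFP(+) against 177.0 in GFP(−), at least 3.37-fold lower. The pair of SYT9 genes had few reads. ENSDARG00000029239 had 90.5 normalized reads in GFP(+) cells against 79.0 in GFP(−) cells, from 45 GFP(+) and 121 GFP(−) reads, a scaled log2 ratio of −0.61 (95% counting interval −1.13 to −0.10). For this gene the deposited and the scaled ratio have opposite signs. Equal values of 100 already correspond to a scaled log2 ratio of −0.73, which lies within its interval. ENSDARG00000003994 was tied at 32.0 in GFP(+) against 46.0 in GFP(−). No gene named SYT2 was among the members.

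Synaptotagmins outside this neuronal group held the clearest exception in the family. With 481.0 normalized reads in GFP(+) cells against 33.0 in GFP(−) cells, syt14b (ENSDARG00000001891) was 14.6-fold higher. Its reads were 362 to 363 in GFP(+) against 46 in GFP(−), a scaled log2 ratio of 3.80 (95% counting interval 3.35 to 4.27). Synaptotagmin 14 belongs to the members of the family whose C2 domains are known from mammals to lack calcium binding. Of the other 10 genes of the group, none was at least 3-fold higher. SYT4 (ENSDARG00000036505), which in mammals acts on dense-core vesicles, had 102.5 in GFP(+) against 497.5 in GFP(−) and was 4.85-fold lower. The SYT11 genes had 209.5 in GFP(+) against 1193 in GFP(−) (ENSDARG00000057913, 5.69-fold lower) and 60.0 in GFP(+) against 197.0 in GFP(−) (ENSDARG00000056105, 3.28-fold lower). The gene syt13 had 90.5 in GFP(+) against 163.5 in GFP(−). The remaining 6 genes (SYT3, a pair of SYT6 genes, SYT10, SYT15 and syt16) were all tied, with 45 to 141 reads in GFP(−) cells.

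All 5 complexin genes had lower values in GFP(+) cells (9260 of all 17668 genes did), and 3 of them were tied. At least 3-fold lower were 3 of the 5, against 16.4% of all genes. CPLX1 (ENSDARG00000077736) had 105.0 normalized reads in GFP(+) cells against 463.0 in GFP(−) cells, 4.41-fold lower, from 55 GFP(+) reads against 580 to 581 GFP(−) reads. CPLX2 (ENSDARG00000061918) had 143.0 in GFP(+) against 363.0 in GFP(−), 2.54-fold lower, and its co-orthologue cplx2a (ENSDARG00000018997) was tied at 43.0 in GFP(+) against 182.5 in GFP(−), at least 3.48-fold lower. Complexins 3 and 4 are the forms of retinal ribbon synapses in mammals. CPLX4 (ENSDARG00000059978) was tied at 46.5 in GFP(+) cells against 476.0 in GFP(−) cells, at least 9.07-fold lower, and CPLX3 (ENSDARG00000089486) was tied at 31.0 in GFP(+) against 42.0 in GFP(−). No ribbon-type complexin was thus read above the tied range in GFP(+) cells. The same class holds syntaxin 3, the syntaxin of retinal ribbon synapses. Its genes had 109.0 in GFP(+) against 295.0 in GFP(−) (ENSDARG00000001880, 2.71-fold lower, 57 GFP(+) and 389 GFP(−) reads) and a tied 51.0 in GFP(+) against 116.0 in GFP(−) (ENSDARG00000051981, at least 2.21-fold lower). Photoreceptor markers and most bipolar cell markers, whose cells use these isoforms, were lower in the same direction. Of 7 bipolar markers, 6 had lower values (9260 of all 17668 genes did) and 4 were tied. At least 3-fold lower were 3 of the 7, against 16.4% of all genes. The other marker, cabp5b, was 4.60-fold higher, with 505.5 in GFP(+) against 110.0 in GFP(−). The 7 summed to 845 normalized reads in GFP(+) cells against 1664.5 in GFP(−) cells. The part of photoreceptor and bipolar cells in the ribbon isoforms was not tested.

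Proteins that act on syntaxin diverged. The non-neuronal Munc18 protein STXBP2 (ENSDARG00000007603) had 2209 normalized reads in GFP(+) cells against 646.0 in GFP(−) cells, 3.42-fold higher. The ubiquitous stxbp3 (ENSDARG00000008142) had 531.5 in GFP(+) against 572.0 in GFP(−), with a scaled read log2 ratio of 0.03 (95% counting interval −0.15 to 0.21). STXBP5 encodes tomosyn, which binds syntaxin and restrains SNARE assembly, and its genes lay on opposite sides. ENSDARG00000029234 had 1289.5 in GFP(+) cells against 375.5 in GFP(−) cells, 3.43-fold higher, and was the only neuronal-class gene at least 3-fold higher. ENSDARG00000002656 had 54.0 in GFP(+) against 207.5 in GFP(−), 3.84-fold lower, from 21 GFP(+) reads against 284 GFP(−) reads. STXBP5L had 99.5 in GFP(+) against 173.0 in GFP(−). STXBP6 (amisyn) had 194.5 normalized reads in GFP(+) cells against 67.0 in GFP(−) cells, 2.90-fold higher by value and 2.04-fold by scaled reads, whereas stxbp6l was tied at 35.5 in GFP(+) against 68.0 in GFP(−).

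Among the priming factors, 1 gene was well read in GFP(+) cells. UNC13B (ENSDARG00000086274), a Munc13 protein, had 491.0 normalized reads in GFP(+) cells against 272.0 in GFP(−) cells. It was 1.81-fold higher, from 369 to 371 GFP(+) reads against 362 GFP(−) reads, with a scaled log2 ratio of 0.85 (95% counting interval 0.64 to 1.07). Its co-orthologue unc13ba (ENSDARG00000017391) was tied at 36.0 in GFP(+) against 71.0 in GFP(−). UNC13A had 63.5 in GFP(+) against 104.0 in GFP(−), from 27 GFP(+) and 154 GFP(−) reads. Its scaled log2 ratio was −1.69 (95% counting interval −2.34 to −1.09). Equal values of 63.5 in both libraries stand for 27 GFP(+) and 100 GFP(−) reads. UNC13C was tied at 52.0 in GFP(+) against 32.5 in GFP(−), with at most 20 GFP(+) reads against 45 GFP(−) reads. The general form unc13d (ENSDARG00000078249), which in mammals serves granule release by leukocytes, had 63.5 in GFP(+) against 274.5 in GFP(−) and was 4.32-fold lower. Leukocyte markers were at least 3-fold lower for 7 of 8 genes, against 16.4% of all genes. The other, an MPEG1 gene (ENSDARG00000043093), was 3.56-fold higher, with 1692.5 in GFP(+) against 476.0 in GFP(−). The 8 genes summed to 2368.5 normalized reads in GFP(+) cells against 13090.5 in GFP(−) cells. The part of leukocytes in unc13d was not tested. RIM proteins tether vesicles and calcium channels at the active zone. Of the 3 RIMS1 genes, ENSDARG00000074680 had 102.5 in GFP(+) against 607.5 in GFP(−) and was 5.93-fold lower. The other RIMS1 genes were tied, at 39.0 in GFP(+) against 107.0 in GFP(−) (rims1b) and at 50.0 in GFP(+) against 42.0 in GFP(−) (ENSDARG00000013690). No gene named RIMS2, RIMS3 or RIMS4 was among the members.

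Of the 9 neuronal genes of the vesicle itself, all had lower values in GFP(+) cells (9260 of all 17668 genes did). Of these, 6 were tied in GFP(+) cells, against 21.2% of all genes. The synaptophysin gene sypb (ENSDARG00000002230), a major protein of the vesicle membrane, had 77.5 normalized reads in GFP(+) cells against 987.5 in GFP(−) cells and was 12.7-fold lower, from 36 GFP(+) reads against 1072 to 1165 GFP(−) reads. Synapsins tie vesicles into a reserve pool. Both genes were tied, syn1 (ENSDARG00000060368) at 44.5 in GFP(+) against 267.5 in GFP(−), at least 5.10-fold lower, and SYN2 (ENSDARG00000045945) at 44.0 in GFP(+) against 237.5 in GFP(−), at least 4.52-fold lower. Of the SV2 genes, which encode vesicle glycoproteins, sv2ba (ENSDARG00000057427) had 83.5 in GFP(+) against 673.0 in GFP(−) and was 8.06-fold lower, while SV2A and SV2B (ENSDARG00000060711) were tied at 51.5 in GFP(+) against 137.0 and 121.5 in GFP(−). A further gene, named only sv2 (ENSDARG00000091833) and assigned to no class, had 108.5 in GFP(+) cells against 39.5 in GFP(−) cells. It was 2.75-fold higher, from 57 GFP(+) and 59 GFP(−) reads, with a scaled log2 ratio of 0.77 (95% counting interval 0.22 to 1.32). RAB3 is the small GTPase of synaptic vesicles. One RAB3A gene (ENSDARG00000056347) had 180.0 in GFP(+) against 319.5 in GFP(−), 1.77-fold lower, from 108 GFP(+) and 418 GFP(−) reads, while the second (ENSDARG00000043835) and RAB3C were tied at 29.5 in GFP(+) against 38.5 in GFP(−) and at 36.0 in GFP(+) against 74.0 in GFP(−).

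The 3 regulators, grouped apart, were all higher by value (47.5% of all genes were). RAB3IL1 (ENSDARG00000007711), a guanine nucleotide exchange factor, had 453.5 normalized reads in GFP(+) cells against 78.0 in GFP(−) cells. It was 5.81-fold higher, with a scaled read log2 ratio of 2.33 (95% counting interval 2.02 to 2.64). RAB3GAP2, of the GTPase-activating complex, had 557.0 in GFP(+) against 307.0 in GFP(−), 1.81-fold higher. SNAPIN, a SNAP25-binding protein of lysosome-related organelles, had 689.0 in GFP(+) against 477.0 in GFP(−).

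The general isoforms were mostly at or above their GFP(−) level, with 26 of 38 higher by value (47.5% of all genes were). Over the 29 of them with known reads the median scaled log2 ratio was 0.06, or −0.15 with the factor from higher values, against 0.15 for their deposited values. The most marked were STX11, VAMP8 and STX7. STX11 is a syntaxin of non-neuronal cells, and ENSDARG00000029290 had 7750.5 normalized reads in GFP(+) cells against 180.0 in GFP(−) cells, 43.1-fold higher and the highest ratio of all members. Its reads lie between 1781 and 13464 in GFP(+) against 252 in GFP(−), and the lower bound alone gives a 12.5-fold scaled ratio. A further STX11 gene, ENSDARG00000042231, had 296.0 in GFP(+) cells, while GFP(−) cells stood at the floor, at least 14.8-fold higher. The remaining STX11 gene, ENSDARG00000044039, was the reverse, tied at 48 in GFP(+) cells against 884.5 in GFP(−) cells and at least 16.8-fold lower. VAMP8 (ENSDARG00000024116), the vesicle SNARE of regulated secretion in epithelial and blood cells, had 5604 in GFP(+) against 463.0 in GFP(−) and was 12.1-fold higher. STX7 (ENSDARG00000069208), a syntaxin of late endosomes, had 457.0 in GFP(+) against 52.5 in GFP(−), 8.70-fold higher, with 341 to 342 GFP(+) reads against 85 GFP(−) reads. STX18 (ENSDARG00000035763), of the endoplasmic reticulum, had 215.5 in GFP(+) against 62.5 in GFP(−) and was 3.45-fold higher. By scaled reads it was only 2.47-fold higher.

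Several partners of these SNAREs were higher by less than 3-fold. The non-neuronal SNAP25 homologue snap23.1 had 2665 normalized reads in GFP(+) cells against 1005.5 in GFP(−) cells, 2.65-fold higher. VAMP3 had 1735 in GFP(+) against 981.5 in GFP(−), and SNAP29 872.5 in GFP(+) against 453.5 in GFP(−). The Golgi syntaxins were close to equal for STX6, at 415.0 in GFP(+) against 406.5 in GFP(−), and for 1 STX5 gene, at 429.5 in GFP(+) against 397.5 in GFP(−), while the second STX5 gene had 1240.5 in GFP(+) against 482.5 in GFP(−). The plasma membrane syntaxin stx4 had 208.0 in GFP(+) against 429.5 in GFP(−) and was 2.06-fold lower. Of the synaptophysin-like genes, SYPL2 had 518.5 in GFP(+) against 542.5 in GFP(−) (ENSDARG00000000690) and 2315.5 in GFP(+) against 1510.5 in GFP(−) (ENSDARG00000055307). The synaptotagmin-like proteins bind RAB27 on secretory granules, and SYTL5 had 89.0 in GFP(+) cells against 23.5 in GFP(−) cells, 3.79-fold higher by value and 2.88-fold by scaled reads, from 44 GFP(+) and 27 GFP(−) reads. SYTL4 (262.0 in GFP(+) against 93.0 in GFP(−)), SYTL3 (64.0 in GFP(+) against 30.0 in GFP(−)) and sytl2b (83.5 in GFP(+) against 43.5 in GFP(−)) were higher by value, and sytl1 and sytl2a were tied. The other general genes were STX2 with stx2a, stx10, STX12, STX16, STX17, STXBP4, VAMP4, vamp5, VAMP7, SNAP47 and SYPL1. They lay within 3-fold by value, with GFP(+) values of 36.5 to 587.5 and GFP(−) values of 49.5 to 365.5. SNAP47, VAMP4 and stx2a had deposited ratios above 1 and scaled read ratios below 1. By scaled reads STX12 was at least 3.34-fold, STXBP4 at least 3.42-fold and SYPL1 3.30-fold lower. Of all genes so measured, 23.6% were at least 3-fold lower. STX12 and STXBP4 were tied, so that a scaled ratio below 1 was fixed in advance for them. Superficial epidermis markers, at a median log2 ratio of 4.29 over 13 genes, were higher in the same library as STX11, VAMP8, STXBP2 and snap23.1. The part of epidermal RNA in these genes was not tested.

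**Figure D4:**
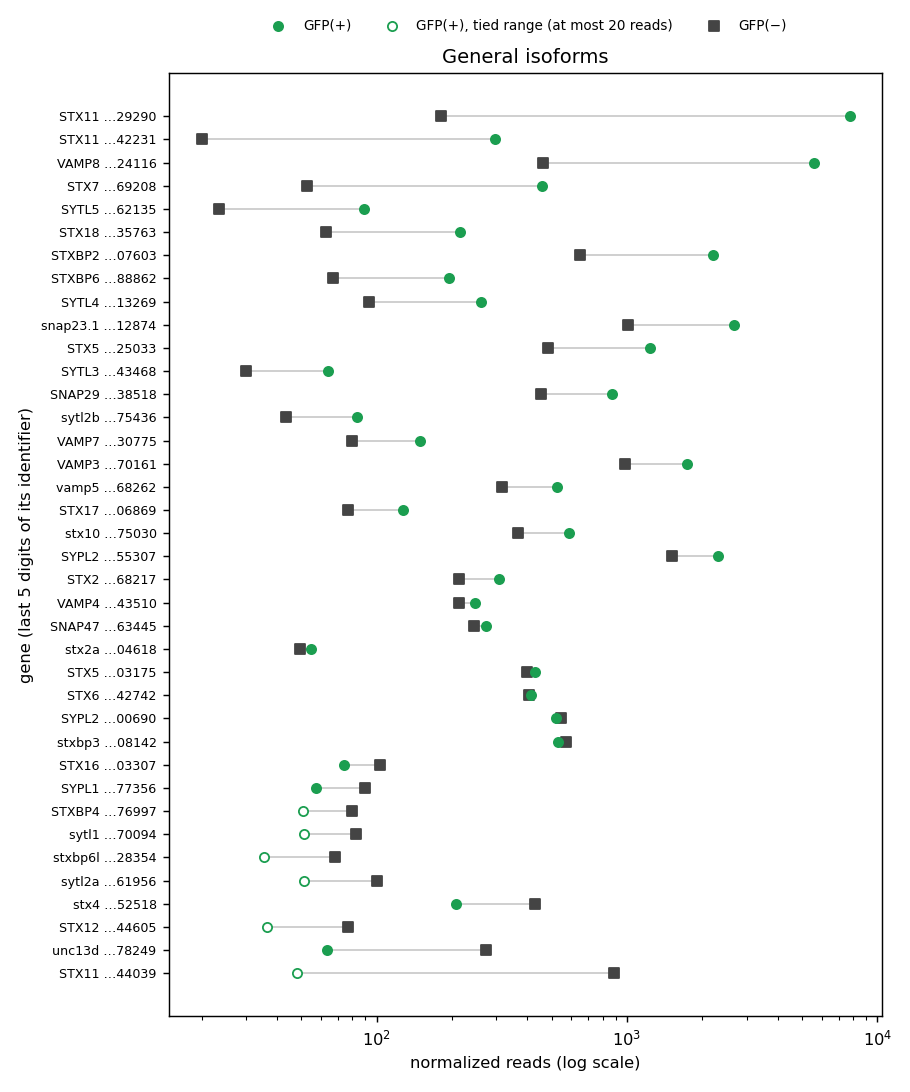
Normalized reads (x axis, log scale) of the 38 general isoforms, 1 gene per line in the order of the ratio, with green circles for GFP(+) values (open where tied) and dark squares for GFP(−) values. The circle lies right of the square for 26 genes. The STX11 genes stand at both ends of the order, with GFP(+) values of 7750.5 and 296.0 at the top and 48 at the bottom.

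Some paralogues of 1 base symbol differed in ratio. The members held 21 groups of such co-orthologues with 44 genes. In 8 groups the highest and the lowest ratio differed by at least 3-fold, with tied values as deposited or set to 52.5. By scaled reads, which leave out genes of high level, 5 groups did. The share of such groups among other genes was not computed. Over all genes the quartiles of the log2 ratio were −1.03 and 1.01, so that unrelated genes differ widely too. STX11 spanned 9.63 on the log2 scale and STXBP5 3.72. The STXBP6, SYTL2, UNC13B and SV2B groups differed by 2.48, 1.91, 1.83 and 1.77. With tied values at 52.5, UNC13B dropped below 3-fold (1.29) and SYT5 came above it (1.74). For RIMS1 the difference of 2.82 rests in part on a tied value whose deposited ratio is above 1. In 9 groups the members lay on both sides of a ratio of 1, but for RIMS1, SYT6 and SYT9 this depended on tied values. The lower SYPL2 gene was close to equal, with a log2 ratio of −0.07 by value and 0.05 by scaled reads. The SNAP25 genes differed by 0.75, and both were low. The reads of near-identical paralogues cannot be assigned with certainty, and how the counting treated them is not given in the sources used here.

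**Figure D5:**
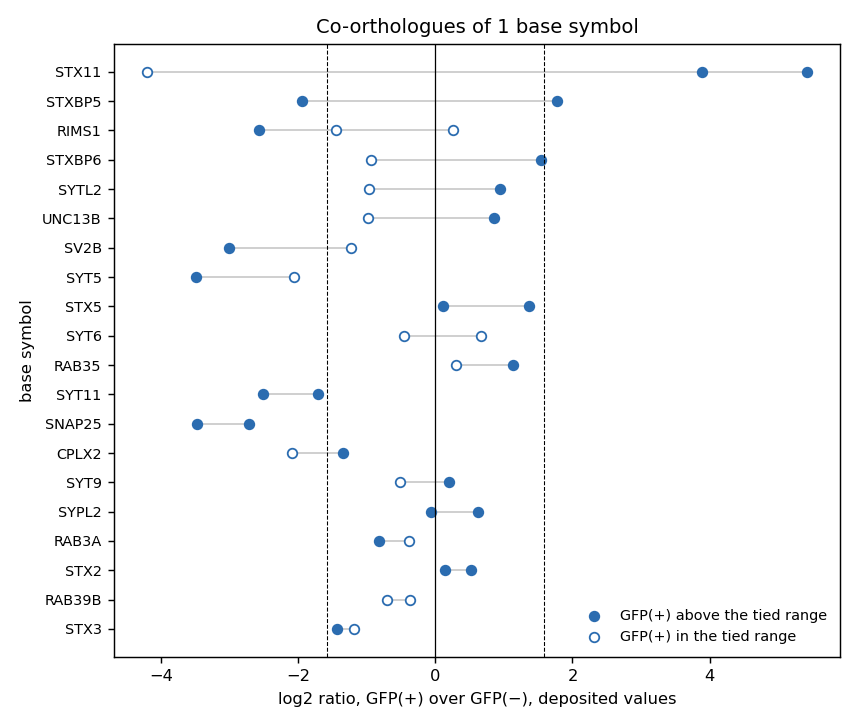
Log2 ratio of GFP(+) to GFP(−) normalized reads (x axis) of 42 genes in 20 groups of co-orthologues (y axis), ordered by the spread within a group. Open circles have a tied GFP(+) value, the solid line marks equal values and the dashed lines a 3-fold difference. STX11 spans 9.63 and STX3, at the bottom, 0.25.

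Tied values turned the sign of 5 members. STX1A, a RIMS1 gene, UNC13C, a SYT6 gene and a RAB35 gene had deposited ratios above 1, but at most 20 reads in GFP(+) cells against 45 to 64 in GFP(−) cells, and the scaled reads put all 5 below the GFP(−) level. All 40 tied members had scaled-read bounds below 0. This holds for any tied gene by construction, because the minimum of 40 reads had then to be met in GFP(−) cells. Of the 66 members above the tied range, 30 had fewer than 100 reads in GFP(+) cells. Scaled reads could be used for 89 members and left out those of high level. By this measure 4 of the 89 were at least 3-fold higher (against 12.4% of all genes so measured) and 33 at least 3-fold lower (against 23.6%). For the 29 neuronal isoforms among them the median was −2.16, against −0.44 over all genes so measured, with tied genes at 20 reads in both. The deposited median of these 29 was −1.34. The 4 that were at least 3-fold higher by scaled reads were RAB3IL1, syt14b, STX7 and the STX11 gene ENSDARG00000042231. STX18, SYTL5 and RAB36 came below 3-fold, and the other 5 of the 12 had GFP(+) levels too high for their reads to be known within 5%. With their lowest possible GFP(+) reads against the highest possible GFP(−) reads, the scaled ratio was at least 12.5-fold for STX11, 6.87-fold for RAB32, 5.26-fold for VAMP8, 3.75-fold for STXBP5 and 3.16-fold for STXBP2. These bounds hold for the factor of 0.566. The factor of 0.654 changes each by −0.21 on the log2 scale, and the bound of STXBP2 then falls below 3-fold.

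The namesakes are accounted for here. Of the 14, 7 were tied (21.2% of all genes were), 2 were at least 3-fold higher (16.9% of all genes) and 1 at least 3-fold lower (16.4% of all genes). RAB32, of melanosomes and related organelles, had 1367.5 normalized reads in GFP(+) cells against 199.5 in GFP(−) cells, 6.85-fold higher. RAB36 had 103.5 in GFP(+) against 26.5 in GFP(−), 3.91-fold higher by value and 2.89-fold by scaled reads, from 54 GFP(+) and 33 GFP(−) reads. RAB34, which acts in ciliogenesis, was tied at 43.5 in GFP(+) against 209.0 in GFP(−), at least 3.98-fold lower. The endocytic adaptor gene snap91b had 296.5 in GFP(+) against 411.0 in GFP(−), and a RAB35 gene above the tied range had 498.5 in GFP(+) against 227.0 in GFP(−). Subunits of a complex that transcribes small nuclear RNA genes were SNAPC5 (211.5 in GFP(+) against 123.0 in GFP(−)), snapc1b (121.5 in GFP(+) against 67.5 in GFP(−)) and snapc2 (63.5 in GFP(+) against 50.0 in GFP(−)), the last with a scaled read ratio below 1. The tied namesakes were RAB34, snapc4, RAB30, RAB33B, the other RAB35 gene and both RAB39B genes.

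Other genes of vesicle release were given by a list of 47 symbols, of which 39 matched 57 genes. In GFP(+) cells 6 of these were at least 3-fold higher (10.5%, against 16.9% of all genes) and 20 at least 3-fold lower (35.1%, against 16.4% of all genes), 15 with tied values at 52.5 (against 14.2%), with a median log2 ratio of −0.88. With tied values at 52.5 the median of the list was −0.54, against 0.16 over all genes. This list shares genes with the HC and neuron lists. Transmitter transporters lay on both sides. SLC17A8, with 1248.5 in GFP(+) against 30.0 in GFP(−), was 41.6-fold higher, while the SLC17A6 gene ENSDARG00000041150, a neuronal glutamate transporter, was tied at 47.0 in GFP(+) against 511.5 in GFP(−), and SLC32A1, the transporter of inhibitory neurons, was tied at 45.5 in GFP(+) against 335.5 in GFP(−). ERC2, an active zone scaffold, had 473.0 in GFP(+) cells and stood at the floor in GFP(−) cells. On the same list, all genes of BSN, PCLO and ERC1 had lower values in GFP(+) cells. PCLO had 255.0 in GFP(+) against 592.0 in GFP(−), and BSN (ENSDARG00000079161) 143.5 in GFP(+) against 213.0 in GFP(−). The gene erc1b had 153.0 in GFP(+) against 251.5 in GFP(−), and the other BSN and ERC1 genes were tied. RIMBP2 (ENSDARG00000001154) went the other way, with 231.5 in GFP(+) against 123.5 in GFP(−). One NSF gene, nsfb, encoding the ATPase that takes SNARE complexes apart, had 796.0 in GFP(+) against 263.0 in GFP(−) and was 3.03-fold higher, and the other NSF gene had 244.5 in GFP(+) against 466.0 in GFP(−). One gene of CTBP2, the source of the ribbon protein RIBEYE, had 244.0 in GFP(+) against 75.5 in GFP(−), 3.23-fold higher by value, with a scaled read log2 ratio of 1.28 that is below 3-fold, and ctbp2a had 395.5 in GFP(+) against 1460.5 in GFP(−). The endocytic GTPase genes of DNM1 were tied, at 43.5 in GFP(+) against 207.5 in GFP(−) and at 45.5 in GFP(+) against 325.5 in GFP(−).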

How the data were processed

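RNA-seq was recorded from GFP(+) and GFP(−) cells sorted from 5 dpf larvae, with 1 library of each. The authors aligned reads to Zv9 with TopHat and counted them per Ensembl gene with HTSeq, whose versions and strand setting are not given in the sources used here. The methods give quantile normalization and then a floor of 20, and the title of the table a minimum of 40 reads. The deposited value of a gene is therefore a quantile-normalized signal and no count. In these values the floor behaves as set before normalization, since the 3741 GFP(+) values up to 52.5 follow the row order with 0 exceptions, against 1122 exceptions among the 3741 GFP(−) values up to 52.5.

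Each distinct value was taken as the mean of the reads of both libraries at 1 rank. Where row order broke between neighbouring values, the reads of that library had changed. Up to 426.5, each of 769 smallest steps had a break in exactly 1 library, and each of 22 steps of 1 in both. The values sum to 19035170.5 in each library, and to 38070341 reads in both together, floors included. Total depth per library stays unknown.

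A call was a deposited ratio of at least 3-fold, read against the share of all genes with such a ratio. Read ratios were used where reads were known within 5% in both libraries, and the scaling factor came from genes with values of 100 to 1000. Names came from a table that matched 14593 identifiers and from deposited symbols. Of the members, 31 had a deposited symbol and 6 were named by it alone, and for 1 gene, SYPL1, the deposited symbol was SYPL2. List genes were matched by equal symbol or, for zebrafish-style names, with a final a or b. The neuron list, for example, had 23 symbols, of which 20 matched. Every member could be named, with values for those at least 3-fold apart, for neuronal and ribbon isoforms and for co-orthologues on both sides of 1. Members, classes and lists were chosen with earlier results of these data known. Alternatives were pseudocounts of 20 and 100, filters, centring, other sources of names, summed co-orthologues, members without namesakes and GFP(+) values up to 48 set to 48. Tied values set to 52.5 and scaled reads were added after seeing the data. A few members enter the counts but are not reported here by name or drawn in the plots by gene. Promoters and proteins were not analysed here, and no coordinates were used. Computation used pandas 2.3.3, numpy 2.4.6 and scipy 1.17.1 in Python 3.11.15, and plots matplotlib 3.10.9.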

Additional observations from a re-analysis of the deposited data

How the results depend on the processing

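Under other settings the 8 results took 93 further values, of which 24 came from settings added after seeing the data. A median counted as moved when it changed by more than 0.41, the median width to either side of a member's 95% counting interval, and a count when it changed by more than 1.5 times. Of the 93 values, 68 stayed within this. A pseudocount of 100 moved the counts of members at least 3-fold apart to 20, and of those lower to 12, the co-orthologue groups to 4, and the medians of the neuronal isoforms to −0.93 and of the genes outside the rule to −0.36. Names from deposited symbols only left 5 members at least 3-fold apart, 2 higher and 3 lower, turned the median of the members to 0.15 and moved that of the neuronal isoforms to −0.71. By construction this setting drops the 75 members without such a symbol. Names from the identifier table only gave −1.94 for the neuronal isoforms, and a minimum mean of 100 gave −2.43. Scaled reads gave 4 members higher and 5 co-orthologue groups with either factor. The medians were −1.09 (members), −2.16 (neuronal), 0.063 (general) and −1.54 (genes outside the rule), and with the factor from higher values −1.30, −2.37, −0.15 and −1.75, with 39 members lower. By construction these settings leave out genes of high level, and over the same 89 members the deposited values gave 7 higher, 17 lower and medians of −0.48, −1.34 (neuronal) and 0.15 (general). The neuronal median was below the general median under every setting. No paired analysis was possible because each population has 1 library, and no library could be left out.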

Other observations

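DNAJC5B (ENSDARG00000058147), chosen after its values were seen, encodes a cysteine string protein of the DnaJ family, whose relative DNAJC5 is a chaperone of synaptic vesicles. It had 855.5 normalized reads in GFP(+) cells against 26.5 in GFP(−) cells, 32.3-fold higher. The 2 genes named DNAJC5 were lower in GFP(+) cells, at 513.0 in GFP(+) against 1944 in GFP(−) and at a tied 40.5 in GFP(+) against 131.5 in GFP(−). SCAMP2, of a family of secretory carrier membrane proteins, had 1450.5 in GFP(+) against 48 in GFP(−) for 1 of its genes (ENSDARG00000017010), 30.2-fold higher, and 1769.5 in GFP(+) against 743.0 in GFP(−) for the other. Of the synaptogyrins, syngr2a, related to a form found outside neurons in mammals, had 451.5 in GFP(+) against 99.5 in GFP(−) and was 4.54-fold higher. The other SYNGR2 gene (ENSDARG00000030752) was not, with 66.5 in GFP(+) against 58.0 in GFP(−). It had 29 GFP(+) and 92 GFP(−) reads, a scaled log2 ratio of −0.84. The neuronal synaptogyrins SYNGR1 and SYNGR3 were lower. SYNGR1 was at a tied 42.5 in GFP(+) against 177.0 in GFP(−). The SYNGR3 genes were at 96.5 in GFP(+) against 333.5 in GFP(−) and at a tied 51.5 in GFP(+) against 232.5 in GFP(−).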
